A study of Mus musculus with 32 samples.

Results

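The mitochondrial ribosomal protein genes were taken as all genes whose symbol starts with Mrpl (large subunit) or Mrps (small subunit) followed by a number and that have a probe set annotated to that gene alone. A probe set is a group of short array probes read as one value. There were 76 such genes among 18194 genes with a probe set of their own on the 2 array types. By symbol alone, 47 were counted with the large and 29 with the small subunit. RefSeq lists 78 protein-coding genes with such symbols. Mrpl30 and Mrpl53, the other 2, were on probe sets shared with another gene and were left out. RNA came from primary MEFs at an early passage, that is mouse embryonic fibroblasts, connective tissue cells grown directly from embryos, and each RNA extract was measured on Affymetrix array A and array B. The 4 groups combined genotype (wild type or Oct-1 mutant) with irradiation (unirradiated or irradiated), at 4 replicates each, hence 16 extracts and 32 arrays. The sources used here do not give the Oct-1 allele, the strain, the embryos' age, the dose and timing of irradiation, or whether replicates came from separate cultures or embryos. Tests therefore measure only how far these extracts spread, which may be technical, and 4 replicates per group limit the precision.

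The mitochondrial ribosome is a separate ribosome inside mitochondria that makes the few proteins encoded by mitochondrial DNA, core subunits of the respiratory chain and ATP synthase. Its RNA comes from mitochondrial DNA, but all its proteins are encoded by nuclear genes, made in the cytosol and imported. The small subunit reads the messenger RNA and the large subunit forms the peptide bonds. Many of the proteins have counterparts in bacterial ribosomes, and others are particular to mitochondria. Oct-1, encoded by Pou2f1, is a POU domain transcription factor that binds the octamer DNA motif. The annotation assigned 0 probe sets to Pou2f1 alone, so no value of the mutated gene itself is given here. Probe sets annotated to several genes were not counted.

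The 76 genes had 160 probe sets, 127 on array A and 33 on array B. The tests used 132 of them, 110 on array A and 22 on array B, or 85 of the large and 47 of the small subunit. Each of the 76 genes kept at least 1. The other 28 probe sets had a mean below the level required on their array (log2 4.962 on array A and 3.362 on array B). Values are on the log2 scale, so a difference of 1 is a doubling. The tested members had means of 3.52 to 11.78. On array A their median level was 9.15, against 8.19 over all 13582 probe sets tested, and the median SE of the irradiation difference was 0.07 against 0.08. In bulk RNA, a change in RNA per cell and a change in the share of cells of a kind cannot be told apart.

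Of 14 fibroblast markers, 14 passed the filter, with means of 7.07 to 14.76. None of 5 endothelial markers passed, and the blood cell marker Ptprc had group means of 1.88 to 1.91. The epithelial keratin Krt18 was low but called higher in Oct-1 mutant extracts (log2 difference 0.46, limma adjusted p = 0.0165), while Epcam stayed below the filter. Krt5, another epithelial keratin, also passed, at group means of 5.0 to 5.39. It was 0.23 higher in the mutant and not called (limma adjusted p = 0.314). Over the groups, the summed log2 level of the 14 fibroblast markers ranged from 159.5 to 167.6 and that of 6 epithelial markers from 22.9 to 24.0. For irradiation 4 fibroblast markers were called, among them Pdgfra (-0.72), and for genotype 4, among them Dcn (2.01) and Lum (1.46), both higher in the mutant. All 5 neural markers, 3 of 7 blood cell markers and 1 of 5 muscle markers also passed the filter, and none of them was called for either. The blood cell markers that passed, Csf1r, Adgre1 and Lyz2, had group means of 5.9 to 6.76. The muscle marker that passed, Acta1, had group means of 9.96 to 10.35. The part of these markers in the results was not tested. Deviations from the group means separated replicates 1 and 2 from replicates 3 and 4, whose sample titles also carry separate number series, called number runs here. Between the runs (replicates 3 and 4 minus 1 and 2) the median difference was 0.02 for large and -0.02 for small subunit probe sets.

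The sequences below are promoters of 6 genes: the 5 with the smallest adjusted p for the averaged irradiation difference, all higher after irradiation, and Mrps14, which had the smallest for genotype and was lower in the mutant. They are RefSeq sequences of the build GRCm38.p6, 250 bases before to 50 after the gene start, 5′ to 3′ on the gene's strand. Capitals mark NRF1 (GCATGCGC), ETS or GABPA (CCGGAAG) and YY1 (AAGATGGC) motifs. NRF1 and GABPA are nuclear factors known for controlling genes of mitochondrial proteins, and YY1 is a zinc finger factor.
Mrps24 (chr11:5707652-5707951, minus strand, 1 YY1 motif): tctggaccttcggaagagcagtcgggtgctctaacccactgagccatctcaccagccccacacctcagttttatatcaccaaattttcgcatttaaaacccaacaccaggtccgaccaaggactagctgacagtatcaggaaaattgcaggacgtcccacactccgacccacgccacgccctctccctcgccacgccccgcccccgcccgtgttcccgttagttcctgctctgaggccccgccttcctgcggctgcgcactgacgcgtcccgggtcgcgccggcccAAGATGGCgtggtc
Mrpl28 (chr17:26123253-26123552, plus strand, none of the motifs): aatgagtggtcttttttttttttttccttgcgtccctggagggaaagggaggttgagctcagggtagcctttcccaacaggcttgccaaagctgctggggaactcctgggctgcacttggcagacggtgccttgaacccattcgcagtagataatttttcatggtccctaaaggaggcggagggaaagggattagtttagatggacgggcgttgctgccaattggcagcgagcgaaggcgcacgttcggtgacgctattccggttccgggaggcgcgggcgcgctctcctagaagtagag
Mrps6 (chr16:92058086-92058385, plus strand, none of the motifs): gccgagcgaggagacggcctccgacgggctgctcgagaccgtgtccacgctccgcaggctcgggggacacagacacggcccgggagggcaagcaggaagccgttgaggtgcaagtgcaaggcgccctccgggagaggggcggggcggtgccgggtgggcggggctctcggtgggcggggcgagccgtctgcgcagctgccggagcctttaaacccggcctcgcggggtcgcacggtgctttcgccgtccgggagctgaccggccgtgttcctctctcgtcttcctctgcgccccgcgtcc
Mrpl39 (chr16:84735195-84735494, minus strand, 2 overlapping NRF1 matches on opposite strands): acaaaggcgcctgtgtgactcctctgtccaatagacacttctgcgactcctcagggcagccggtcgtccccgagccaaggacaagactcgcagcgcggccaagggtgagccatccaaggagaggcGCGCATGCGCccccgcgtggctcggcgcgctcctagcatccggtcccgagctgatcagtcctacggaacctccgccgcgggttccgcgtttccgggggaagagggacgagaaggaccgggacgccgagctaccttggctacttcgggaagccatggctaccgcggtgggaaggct
Mrpl43 (chr19:45006393-45006692, minus strand, 2 ETS motifs): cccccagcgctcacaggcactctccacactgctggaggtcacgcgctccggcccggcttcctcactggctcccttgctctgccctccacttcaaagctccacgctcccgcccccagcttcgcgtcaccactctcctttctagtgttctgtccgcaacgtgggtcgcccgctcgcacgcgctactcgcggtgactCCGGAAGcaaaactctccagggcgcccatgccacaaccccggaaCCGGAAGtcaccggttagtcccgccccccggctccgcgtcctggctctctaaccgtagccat
Mrps14 (chr1:160194965-160195264, plus strand, none of the motifs): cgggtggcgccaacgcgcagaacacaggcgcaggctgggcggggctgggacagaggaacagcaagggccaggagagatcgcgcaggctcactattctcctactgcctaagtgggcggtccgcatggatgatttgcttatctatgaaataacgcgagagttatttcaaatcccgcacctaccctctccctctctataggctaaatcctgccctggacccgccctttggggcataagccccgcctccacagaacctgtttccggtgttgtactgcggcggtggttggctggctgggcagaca

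The promoter table held 73 promoters of 67 of the 76 genes. Searched on both strands, the octamer ATGCAAAT was in 0 of the 73 member promoters and in 1.66% of 21263 promoters of protein-coding genes, which says only that these letters are not in these windows. The ETS motif was in 25 member promoters (34.2%), against 11.6% of protein-coding promoters. YY1 was in 12 (16.4%, against 3.05%), NRF1 in 8 (11%, against 3.52%) and the E-box CACGTG in 7 (9.59%, against 7.84%). By subunit, the ETS motif was in 14 of 46 large and 11 of 27 small subunit promoters, and NRF1 in 7 and 1. No 2 different motifs overlapped in a member promoter. These are letter matches, not measured binding, and no test was made of them.

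As a group the members stayed close to their overall mean in each extract. For each extract, the median over probe sets of the deviation from the probe set's own mean over 16 extracts was taken. For the large subunit this median averaged -0.03 ± 0.02 (SD, n = 4) in wild type unirradiated, 0.04 ± 0.04 in wild type irradiated, -0.03 ± 0.03 in Oct-1 mutant unirradiated and 0.03 ± 0.04 in Oct-1 mutant irradiated extracts. For the small subunit the means were 0.00 ± 0.00, 0.02 ± 0.03, -0.05 ± 0.06 and 0.01 ± 0.03 in the same order. The irradiated means were the higher ones in both genotypes and both subunits, but large subunit values of the wild type groups met at -0.01, and the other irradiated and unirradiated groups overlapped. The median over all tested probe sets moved from -0.02 ± 0.02 to -0.01 ± 0.02 in wild type and from -0.01 ± 0.02 to 0.01 ± 0.03 in mutant extracts.

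**Figure D1:**
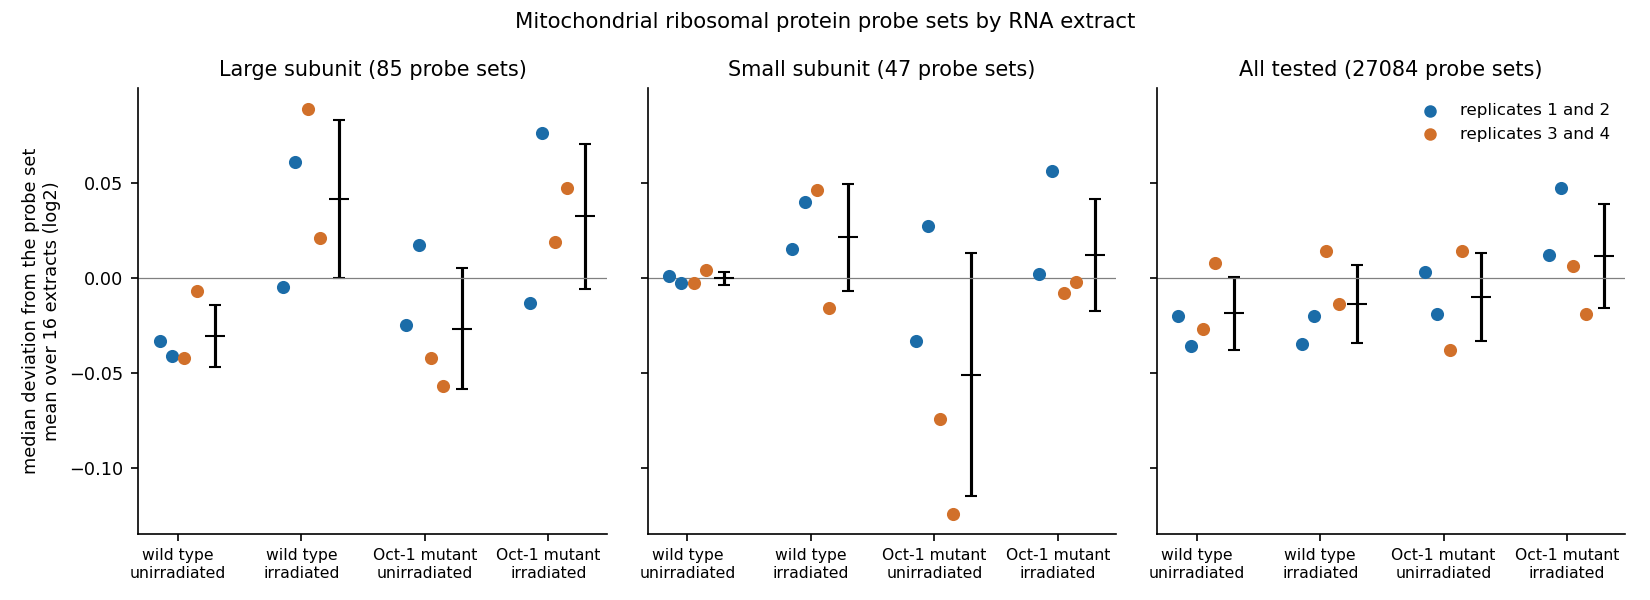
Median deviation from the probe set mean (log2) in each extract (points) for 85 large subunit, 47 small subunit and all 27084 tested probe sets, by group, coloured by replicate number, with the mean and SD of the 4 extracts beside them. Large subunit means lie at 0.04 and 0.03 in the irradiated groups and at -0.03 in both unirradiated groups, and the mutant points overlap.

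The question of the first comparison was which members irradiation changed when both genotypes were averaged. In all, 13 probe sets of 12 genes were higher after irradiation and 1, of Mrpl50, was lower, all by modest amounts of 0.14 to 0.46 on the log2 scale. On array A, 11 of 110 member probe sets were called (10%), below the 12.8% called among all probe sets tested on that array. By direction, 10 of the 11 were higher, where 7.38% of all probe sets were called higher and 5.47% lower. On array B, 3 of 22 were called, all higher, against 2.14% of all. Those 3, of Mrpl43 and Mrpl52, were also on array A, where none was called without the block. Their array B values ran from 8.89 to 11.77, while all probe sets tested on that array had a median level of 4.69. With the replicate number as a block the calls on array A rose to 26 of 110 (23 higher, 3 lower), against 25.2% of all (14.1% higher and 11.1% lower), and on array B to 4 of 22, against 4.61%. The share of members called on array A was thus near the background in both fits. Calls here are limma tests with a Benjamini-Hochberg adjusted p under 0.05 within an array type. On array A the median over members was 0.07 against 0.01 over all tested probe sets, and 69.1% of members lay above 0 against 51.7%.

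Mrps24, a small subunit protein with a bacterial counterpart, was measured by 1450865_s_at. It stood at 9.25, 9.16, 9.28 and 9.23 in wild type unirradiated replicates 1 to 4 and at 9.32, 9.57, 9.64 and 9.59 after irradiation. In the Oct-1 mutant it stood at 9.26, 9.17, 9.16 and 9.30 without and 9.45, 9.75, 9.38 and 9.51 with irradiation. Every irradiated extract was above every unirradiated extract of its genotype. The averaged rise was 1.23-fold (log2 0.30, SE 0.06, limma adjusted p = 0.00405, 0.00187 with the block), and in the number runs it measured 0.32 (replicates 1 and 2) and 0.29 (replicates 3 and 4). The other Mrps24 probe set, 1438563_s_at, was at 0.10 and was not called. The ending _s_at marks a probe set that can match related transcripts.

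Mrps6, a small subunit protein with a bacterial counterpart, showed the largest rise. Its probe set 1424440_at stood at 10.04, 9.98, 9.96 and 10.04 in wild type unirradiated and at 10.43, 10.36, 10.29 and 10.20 in wild type irradiated extracts. In the mutant the values were 10.08, 10.37, 10.07 and 10.03 without and 10.37, 10.79, 10.42 and 10.33 with irradiation. Wild type groups did not overlap, and mutant groups overlapped through replicate 2 without irradiation, at 10.37. The rise was 1.25-fold (log2 0.33, SE 0.07, limma adjusted p = 0.00558). A second probe set on array B, 1447585_s_at, was 0.24 higher, was called only with the block (adjusted p = 0.019), and followed the first over the 16 extracts (r = 0.80).

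Among large subunit members, Mrpl28, with a bacterial counterpart, stood on 1416284_at at 9.30, 9.30, 9.25 and 9.39 in wild type unirradiated and 9.53, 9.58, 9.58 and 9.51 in irradiated extracts. Mutant extracts stood at 9.14, 9.39, 9.29 and 9.21, and at 9.50, 9.62, 9.50 and 9.36. Wild type groups were separate, and mutant groups overlapped between 9.36 and 9.39. The rise was 1.18-fold (log2 0.24, SE 0.05, limma adjusted p = 0.00445). Its other probe sets on array A, 1437622_x_at and 1456313_x_at, were at 0.09 and -0.06, neither called, and the second ran opposite to 1416284_at over the extracts (r = -0.33).

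Mrpl39, particular to mitochondria, stood at 9.0, 9.07, 9.22 and 9.11 in wild type unirradiated and 9.33, 9.32, 9.43 and 9.33 in irradiated extracts on 1417966_at. In Oct-1 mutant extracts the values were 9.12, 9.13, 8.92 and 9.09, and at 9.25, 9.60, 9.26 and 9.29. The groups did not overlap in either genotype. The rise was 1.20-fold (log2 0.27, SE 0.06, limma adjusted p = 0.00737). Its second probe set, 1448909_a_at, was 0.20 higher and was called only with the block (adjusted p = 0.0153).

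Mrpl43, also particular to mitochondria, stood on array B at 8.90, 8.96, 8.93 and 9.14 in wild type unirradiated and 9.24, 9.26, 9.39 and 9.46 in irradiated extracts. The mutant values were 8.93, 9.18, 8.98 and 8.89, and at 9.27, 9.27, 9.17 and 9.32. Wild type groups were separate, and mutant groups met at 9.17 and 9.18. The rise was 1.24-fold (log2 0.31, SE 0.06, limma adjusted p = 0.00889). The same probe set on array A rose by 0.16 and was called only with the block (adjusted p = 0.0384).

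The calls of 5 further genes held on leaving out any 1 extract, except for Mrps31. Mrpl13 was higher by 0.25 on 1424204_at (limma adjusted p = 0.0105), with no overlap of groups in either genotype, while its other 2 probe sets were at 0.07 and 0.02 and were not called. Mrpl23, which lies at the exit of the peptide tunnel, was higher by 0.22 (limma adjusted p = 0.0143), and Mrpl16 by 0.23 (limma adjusted p = 0.0164). Mrpl52 was higher by 0.22 on 1415761_at of array B (limma adjusted p = 0.011, 0.0505 after quantile normalization), against 0.08 and not called on array A. Mrps31, a small subunit protein particular to mitochondria, was higher by 0.25 (limma adjusted p = 0.0241), and its call was lost without wild type unirradiated replicate 1 or without Oct-1 mutant unirradiated replicate 3 (adjusted p up to 0.0514). The Mrps31 probe set of array B was at 0.01, not called.

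The calls of 3 other probe sets depended on single extracts. Mrpl27, a protein near the peptide bond forming centre, was 0.14 higher (limma adjusted p = 0.0305) and lost its call on leaving out any 1 of 9 extracts (adjusted p up to 0.0619). Mrpl21 was 0.23 higher on 1452580_a_at (limma adjusted p = 0.0477), with 0.12 in the first and 0.33 in the second number run, and lost its call without any 1 of 11 (up to 0.0957) and after quantile normalization (0.079). The other Mrpl21 probe set, on array B, lay the opposite way at -0.14 and was not called (r = -0.35 between them). Mrpl52 on 1415762_x_at of array B was 0.26 higher (limma adjusted p = 0.0329) and lost it without any 1 of 9 (up to 0.0758) and after quantile normalization (0.121).

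Mrpl50, a large subunit protein particular to mitochondria, gave the one lower value that was called. Its probe set 1451266_at stood at 6.67, 6.51, 7.04 and 6.07 in wild type unirradiated and 6.02, 6.18, 5.91 and 6.16 in irradiated extracts. Among mutant extracts the levels were 6.75, 6.71, 6.68 and 5.80, and at 6.08, 6.11, 6.03 and 6.05. Replicate 4 was the lowest of both unirradiated groups and the groups overlapped: in wild type it lay among the irradiated values, and in the mutant, at 5.80, below all of them. The fall was 1.38-fold (log2 -0.46, SE 0.14, limma adjusted p = 0.0469), and the call was lost on leaving out any 1 of 14 of the 16 extracts (adjusted p up to 0.0931). The other probe set, 1424164_at, differed by -0.09 and was not called (limma adjusted p = 0.665).

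**Figure D2:**
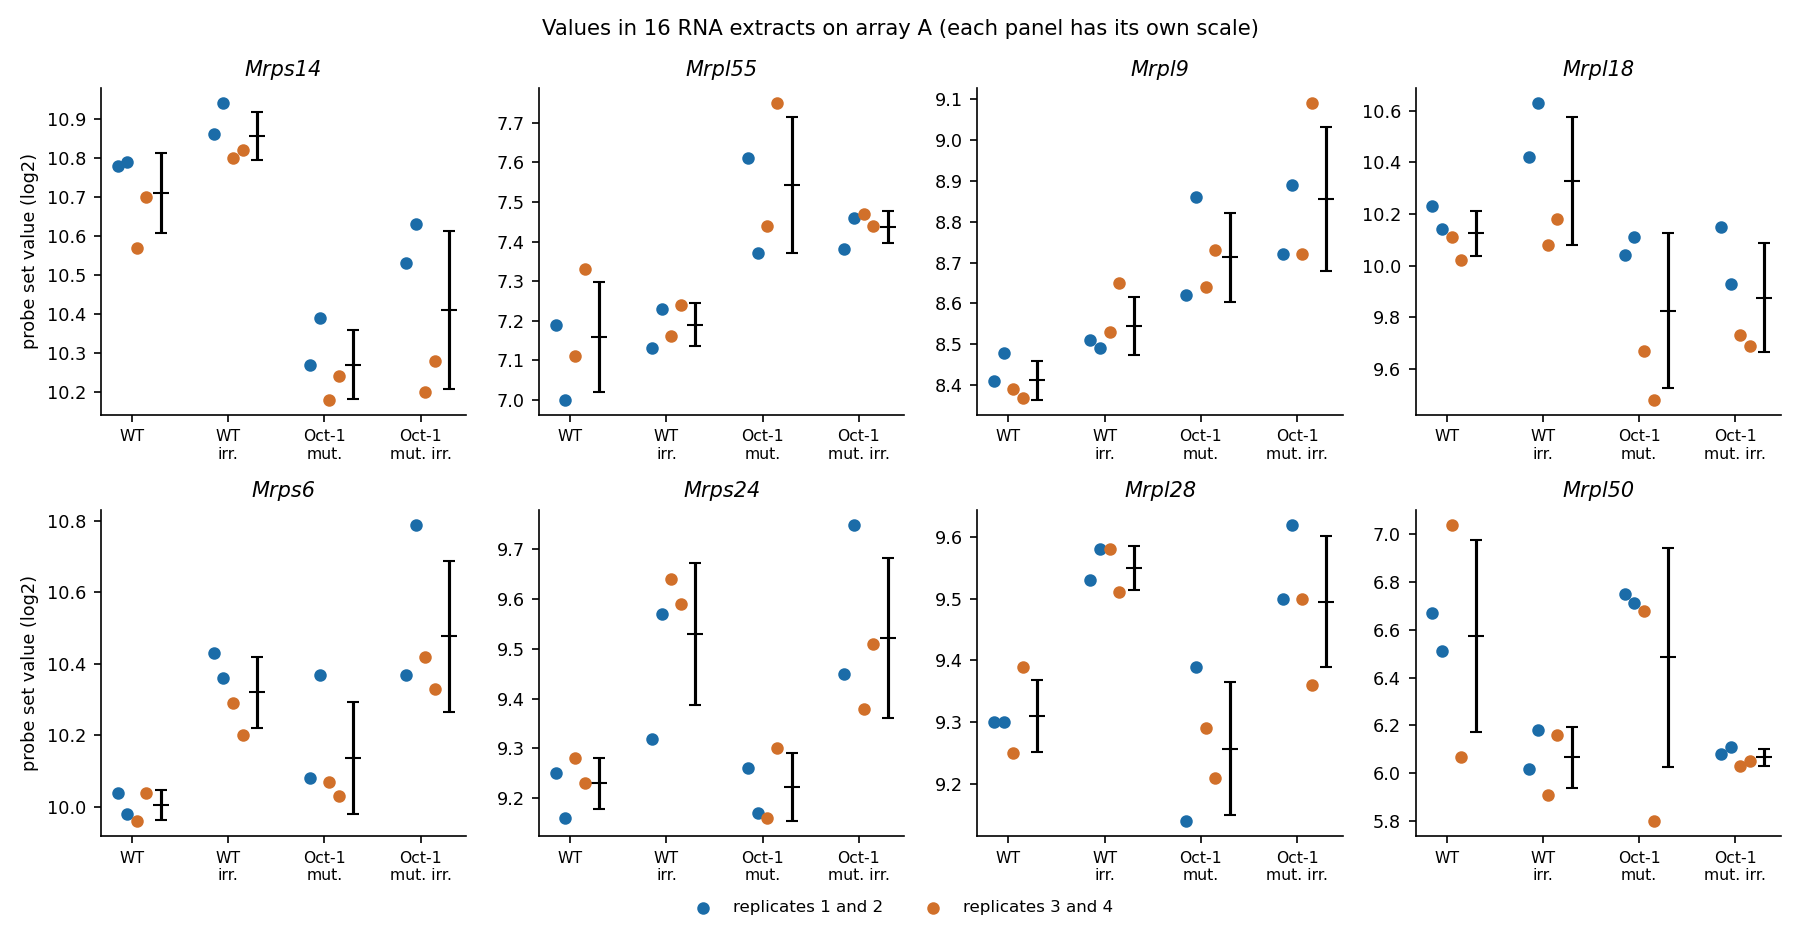
Log2 values of 8 member probe sets of array A in 16 extracts (points, coloured by replicate number), by group, with mean and SD of 4 replicates beside them; each panel has its own axis, not starting at 0. Mrps14 lies lower and Mrpl55 and Mrpl9 higher in both mutant groups, Mrps6, Mrps24 and Mrpl28 lie higher in irradiated groups, and unirradiated replicate 4 of Mrpl50 lies low in both genotypes.

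With the replicate block, 16 more probe sets were called for the averaged irradiation effect. The higher ones included Mrpl34 (0.23, limma adjusted p = 0.00444), Mrps21 (0.17), Mrpl11 (0.17), Mrpl42 (0.14), Mrps25 (0.22), Mrpl20 (0.15), Mrpl49 (0.23) and Mrpl10 (0.16). They also included Mrps14 on 1420489_at (0.14, limma adjusted p = 0.0184), Mrps23 on 1421875_a_at (0.18, 0.0334) and Mrpl52 on 1415762_x_at of array A (0.16, 0.0281). The lower ones were Mrps17 (-0.20, limma adjusted p = 0.023) and Mrps18b (-0.14, limma adjusted p = 0.0457).

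The subunits were then set side by side. Of 85 large subunit probe sets 10 were called higher and 1 lower, with a median of 0.07, and 57 lay above 0. Of 47 small subunit probe sets 3 were called higher and 0 lower, with a median of 0.04, and 34 lay above 0. With the block these counts became 19 and 1 for the large and 8 and 2 for the small subunit. On array A, 8 of 73 large (11%) and 3 of 37 small subunit probe sets (8.11%) were called, neither above the 12.8% of all, and with the block 23.3% and 24.3%, against 25.2%. Over the replicate pairs, the difference of the medians, large minus small, had an SD of 0.04. This is a spread between pairs, not the error of their average. In the fit of all extracts that difference was 0.04. It was 0.00 in the second number run, 0.01 without Oct-1 mutant unirradiated replicate 1, 0.02 without wild type unirradiated replicate 1 or 2 or Oct-1 mutant irradiated replicate 3, and 0.06 without Oct-1 mutant irradiated replicate 1. Over the 84 probe sets of members with a bacterial counterpart the median was 0.04, and over the 48 of those without it was 0.08. Within the large subunit these medians were 0.04 and 0.11, and within the small subunit 0.04 and 0.01.

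Within wild type cells, 0 of 110 members on array A and 0 of 22 on array B were called, against 3.84% and 0.77% of all probe sets. At an unadjusted limma p under 0.05 there were 13 on array A and 4 on array B, against 2064 of 13582 and 960 of 13502 probe sets, and the smallest adjusted p was 0.0611, for Mrpl13. With the block, 6 members on array A and 1 on array B were called, all higher, against 10.4% and 1.8% of all. These were Mrpl13 (0.30), Mrpl34 (0.30), Mrps6 (0.31), Mrpl28 (0.24), Mrps24 (0.30), Mrps31 (0.29) and, on array B, Mrpl43 (0.35). The 3 most negative values were -0.51 and -0.18 for the probe sets of Mrpl50 and -0.25 for Mrpl1, none called. Medians were 0.09 for the large and 0.02 for the small subunit, and 0.01 over all probe sets.

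Within the Oct-1 mutant, again 0 members were called on either array, against 4.65% of all on array A and 0.681% on array B. At an unadjusted limma p under 0.05 there were 18 on array A and 5 on array B, against 2417 and 1019 of all, and the smallest adjusted p was 0.0626, for Mrps6. With the block, 7 of 110 on array A were called, all higher, against 12.8% of all, and 0 of 22 on array B, against 1.49%. These were Mrps6 (0.34), Mrpl21 (0.33), Mrpl16 (0.28), Mrpl23 (0.25), Mrpl28 (0.24), Mrps24 (0.30) and Mrpl39 (0.28). On array B Mrpl52 was at 0.34 on 1415762_x_at. The most negative values were Mrpl50 (-0.42), Mrpl15 on 1430798_x_at (-0.26) and Mrps17 (-0.23), none called. Medians were 0.05 for the large and 0.06 for the small subunit, and 0.02 over all probe sets.

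Whether irradiation acted differently in the genotypes was tested directly. In limma, 0 members and 0% of all probe sets were called on array A (0% with the block) and 0% on array B (0% with the block). At an unadjusted p under 0.05 there was 1 member, against 395 of all 27084 probe sets. That member was Mrpl1, on 1423351_at, at 6.88, 6.61, 6.73 and 6.77 in wild type unirradiated and 6.31, 6.48, 6.52 and 6.70 in irradiated extracts. Mutant extracts stood at 6.60, 6.46, 6.59 and 6.44, and at 6.38, 6.71, 6.61 and 6.83. The difference of effects (mutant minus wild type) was 0.36 (SE 0.15, unadjusted p = 0.0329, limma adjusted p = 1). The next values upward were Mrpl21 (0.19) and Mrps10 on array B (0.18), and downward Mrpl15 on 1430798_x_at (-0.25), Mrpl44 (-0.22) and Mrpl51 (-0.21). Over 110 member probe sets of array A the irradiation differences in wild type and in mutant cells, which share no extracts, had the same sign in 90 (81.8%, against 74.8% of all on that array), and their correlation across probe sets was 0.72, against 0.81 over all. Probe sets share arrays and replicate runs, so these are descriptions.

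**Figure D3:**
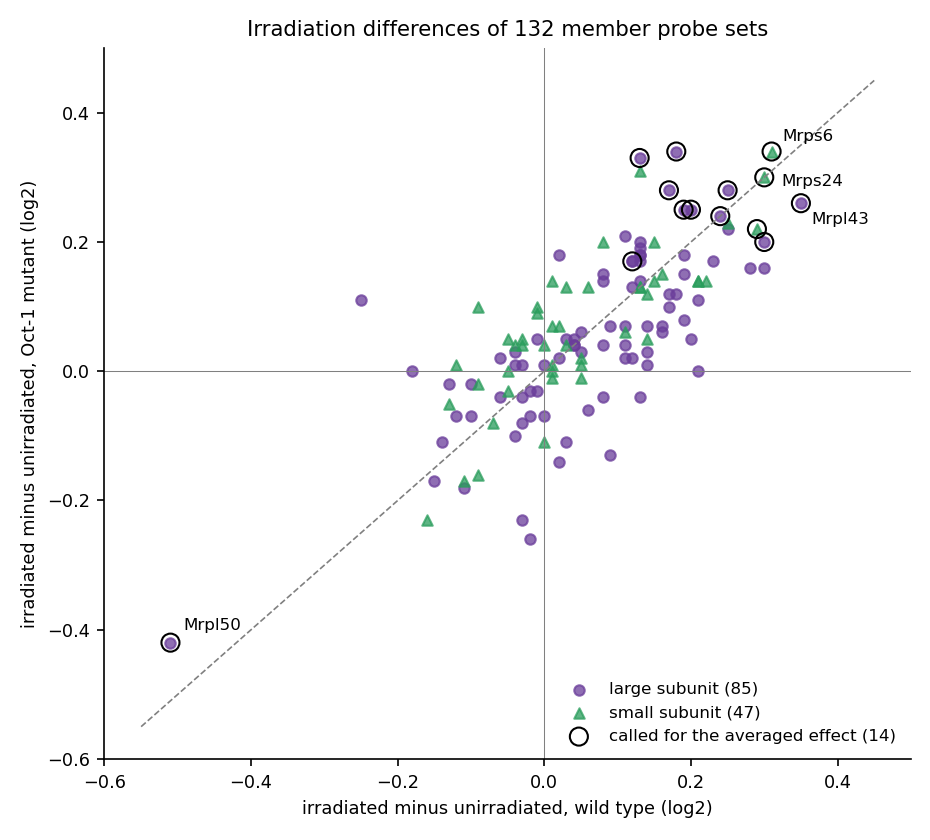
Irradiated minus unirradiated log2 difference of 132 member probe sets in wild type (horizontal) against Oct-1 mutant cells (vertical); circles are large and triangles small subunit, rings mark the 14 called for the averaged effect, the dashed line marks equal differences. Most points lie at or above 0 on both axes and Mrpl50 stands apart at -0.51 and -0.42.

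The question of the second comparison was which members differed between Oct-1 mutant and wild type cells when both irradiation states were averaged. Mrps14 and Mrpl18 were lower in the mutant and Mrpl9, Mrpl55, Mrpl4, Mrpl57 and Mrpl54 higher, each on 1 probe set. On array A, 7 of 110 were called (6.36%), below the 10.6% of all probe sets (6.57% higher and 4.02% lower). On array B 0 of 22 were called, against 1.9%. With the block 19 of 110 were called on array A, 6 higher and 13 lower, against 22.5% of all (12.4% higher and 10.2% lower), and 0 of 22 on array B, against 5.25%. The balance of directions among the calls thus turned from more higher to more lower. On array A the median over members was -0.02 against 0.00 over all, and 43.6% lay above 0 against 50.6%.

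Mrps14, a protein of the head of the small subunit with a bacterial counterpart, had the smallest adjusted p of the members in this comparison. Its probe set 1420489_at stood at 10.78, 10.79, 10.57 and 10.70 in wild type unirradiated and 10.86, 10.94, 10.80 and 10.82 in wild type irradiated extracts. In Oct-1 mutant extracts the values were 10.27, 10.39, 10.18 and 10.24 without and 10.53, 10.63, 10.20 and 10.28 with irradiation. Every mutant extract was below every wild type extract of the same irradiation state. The mutant level was 1.36-fold lower (log2 -0.44, SE 0.06, limma adjusted p = 0.000184, 1.3e-06 with the block), with -0.39 in the first and -0.50 in the second number run, and no single extract was needed for the call. The second probe set of array A, 1420488_at, was 0.28 lower on the log2 scale, lower in 8 of 8 pairs, with a limma adjusted p of 0.0562 (0.0108 with the block). Another, on array B, 1443262_at, at a low level of 4.21 to 4.61, differed by 0.05 and was not called (limma adjusted p = 0.551).

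Mrps14 lies on chromosome 1, as Pou2f1 does, with 59 protein-coding genes of the RefSeq table between them. Of 67 probe sets tested for 32 of the genes between them, 9 (of 5 genes) were called for the averaged genotype difference, 5 higher and 4 lower. They were 9 of 31 on array A, against 10.6% of all, and 0 of 36 on array B, against 1.9%. The other members on that chromosome were not called for it: Mrpl15 on 7 probe sets (-0.16 to 0.01), Mrps9 (-0.10 to 0.01) and Mrpl44 (-0.06 to 0.24). Whether position on the chromosome bears on Mrps14 was not tested.

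Mrpl55, particular to mitochondria, stood at 7.19, 7.00, 7.11 and 7.33 in wild type unirradiated and 7.13, 7.23, 7.16 and 7.24 in irradiated extracts. The mutant values were 7.61, 7.37, 7.44 and 7.75, and at 7.38, 7.46, 7.47 and 7.44. All 8 mutant values were above all 8 wild type values. The mutant level was 1.24-fold higher (log2 0.31, SE 0.07, limma adjusted p = 0.00532).

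Mrpl9, with a bacterial counterpart, stood on 1427297_at at 8.41, 8.48, 8.39 and 8.37 in wild type unirradiated and 8.51, 8.49, 8.53 and 8.65 in irradiated extracts. Among mutant extracts the levels were 8.62, 8.86, 8.64 and 8.73, and at 8.72, 8.89, 8.72 and 9.09. Mutant extracts were above wild type extracts within each irradiation state. The mutant level was 1.24-fold higher (log2 0.30, SE 0.06, limma adjusted p = 0.00432). Its other probe sets were 0.24 higher on array A, called only with the block (adjusted p = 0.0276), and 0.11 on array B, not called.

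Mrpl18, which has a bacterial counterpart, was the other lower member. It stood at 10.23, 10.14, 10.11 and 10.02 in wild type unirradiated and 10.42, 10.63, 10.08 and 10.18 in irradiated extracts. Mutant extracts stood at 10.04, 10.11, 9.67 and 9.48, and at 10.15, 9.93, 9.73 and 9.69. Genotypes overlapped in both irradiation states, while the mutant was lower in 8 of 8 pairs of replicate number, and mutant replicates 3 and 4 were the lowest of all. The mutant level was 1.30-fold lower (log2 -0.38, SE 0.10, limma adjusted p = 0.0305, 0.000282 with the block). Without the block the call was lost on leaving out any 1 of 8 extracts (adjusted p up to 0.0684).

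The remaining calls were small. Mrpl4, which lines the peptide tunnel, was 0.22 higher in the mutant (limma adjusted p = 0.0184) and kept its call without any extract. Mrpl57 was 0.16 higher (limma adjusted p = 0.0291) and lost its call on leaving out any 1 of 9 extracts (adjusted p up to 0.0645). Mrpl54 was 0.25 higher (limma adjusted p = 0.0363), with 0.17 in the first and 0.33 in the second number run, and lost it without any 1 of 10 (up to 0.0764) and after quantile normalization (0.0745). With the block, Mrps23 on 1421874_a_at (-0.35, limma adjusted p = 0.00061), Mrpl42 (-0.20) and both array A probe sets of Mrpl19 (-0.19 each) were also called lower. So were single probe sets of Mrps5 (-0.28), Mrpl47 (-0.15), Mrps35 (-0.16), Mrpl11 (-0.14), Mrpl13 (-0.19, on 1460354_a_at) and Mrpl12 (-0.17). Other tested probe sets of these genes were not called. They were at -0.10 and 0.13 for Mrps23, -0.09 for Mrpl19 and 0.20, the opposite way, for Mrpl47. For Mrps5 they were at -0.04, -0.09 and -0.18, for Mrpl11 at -0.11, -0.04 and -0.06, and for Mrpl13 at -0.02 and -0.03.

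**Figure D4:**
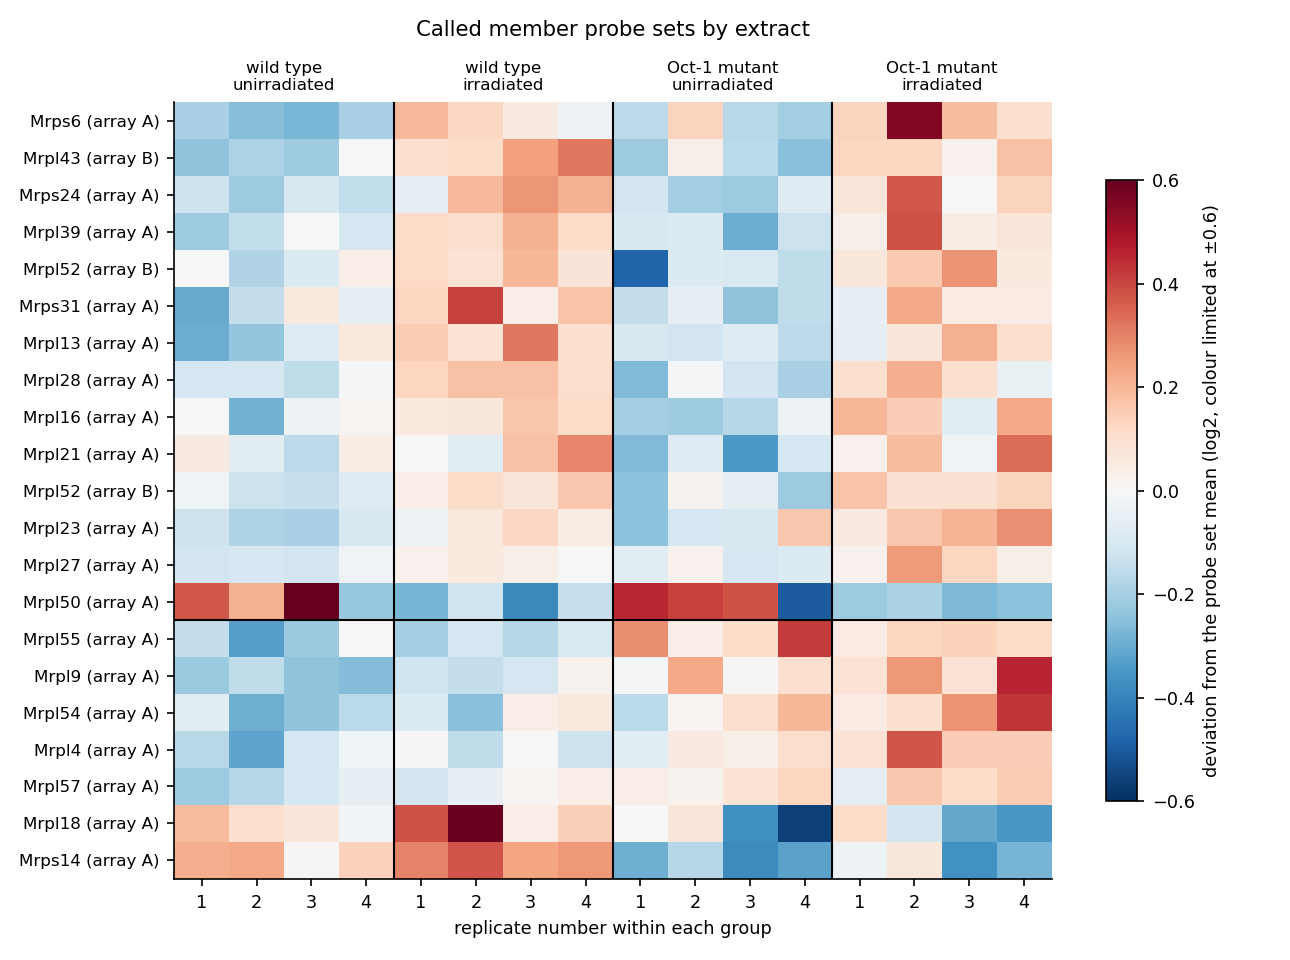
Deviation from the probe set mean (log2; red above, blue below, colour limited at 0.6) of 21 called member probe sets (rows) in 16 extracts (columns, replicates 1 to 4 of each group). The 14 rows above the line were called for irradiation and the 7 below it for genotype; Mrps14 is blue in most mutant extracts and Mrpl50 is blue in unirradiated replicate 4 of both genotypes.

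Without irradiation, 2 members were called on array A, against 3.87% of all, and 0 on array B, against 0.437%. Mrps14 was lower by 0.44 on the log2 scale (limma adjusted p = 0.00859). Mrpl55 was higher by 0.38 (limma adjusted p = 0.0313), a call lost without wild type unirradiated replicate 1, 2 or 3 or without Oct-1 mutant unirradiated replicate 1 or 4 (adjusted p up to 0.101), or with quantile normalization (0.0532). With the block 8 of 110 were called, 3 higher and 5 lower, against 11.1% of all on array A, and 0 on array B, against 1.73%. They were Mrps14 (both array A probe sets), Mrps23 (-0.41), Mrpl19 on 1450405_at (-0.24), Mrpl18 (-0.30), Mrpl55, Mrpl57 (0.20) and Mrpl9 (0.30). Mrpl44 on 1426651_at had the next largest positive value, 0.29, and was not called. Medians were 0.00 for the large and -0.02 for the small subunit.

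With irradiation, Mrps14 was the one member called on array A (-0.45, limma adjusted p = 0.00726), against 3.8% of all, and 0 were called on array B, against 0.363%. With the block 7 of 110 were called, 2 higher and 5 lower, against 10.4% of all on array A, and 0 on array B, against 1.58%. They were Mrps14, Mrpl18 (-0.45), Mrpl19 on 1421914_s_at (-0.29), Mrpl42 (-0.23), Mrps23 (-0.28), Mrpl9 (0.31) and Mrpl54 (0.27). The Mrpl19 probe set called here was not the one called without irradiation, and neither was called in both states. Mrps27 on array B (-0.30) and Mrpl44 on 1437391_x_at (0.27) were among the largest differences and were not called. That Mrpl44 probe set is not the one named for the comparison without irradiation. Medians were -0.01 for the large and -0.02 for the small subunit. Over the 110 members of array A, the genotype differences without and with irradiation, which share no extracts, had the same sign in 79 (71.8%, against 73.8% of all on that array).

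By subunit, the averaged genotype difference was called higher in 5 and lower in 1 of 85 large subunit probe sets, and higher in 0 and lower in 1 of 47 small subunit probe sets. With the block the counts were 6 and 8 for the large and 0 and 5 for the small subunit. On array A, 8.22% of large and 2.7% of small subunit probe sets were called, against 10.6% of all. Both medians were -0.02.

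Mrps18a, Mrps18b and Mrps18c are 3 paralogues of 1 bacterial protein. Mrps18b and Mrps18c belong to the small subunit, and structures place Mrps18a in the large one, as they do Mrps30 (irradiation -0.02, genotype 0.05, neither called). Both were counted with the small subunit by symbol, and moving them gave a large minus small median of 0.03 for averaged irradiation, against 0.04. For Mrps18a, Mrps18b and Mrps18c the averaged irradiation differences were 0.02, -0.14 and 0.03, with limma adjusted p of 0.887, 0.0903 and 0.851. For genotype they were 0.05, -0.07 and 0.03, none called. Mrps18b stood at 9.47 to 9.67 in wild type unirradiated, 9.35 to 9.56 in wild type irradiated, 9.42 to 9.61 in mutant unirradiated and 9.26 to 9.47 in mutant irradiated extracts, lower after irradiation in 7 of 8 pairs.

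Different probe sets of 1 gene often gave different values. Of 31 genes with at least 2 tested probe sets, 29 gave 94 pairs of different probe sets, whose correlation over 16 extracts had a median of 0.13, and in 52 of the 94 pairs the irradiation differences had the same sign. Correlations ran from -0.62, between 1420488_at and 1443262_at of Mrps14, to 0.80, reached in Mrps6 and Mrpl52. The Mrps14 probe set 1443262_at was at a low level (4.21 to 4.61), as were some probe sets in other pairs. Mrpl15, with the most tested probe sets, gave the most pairs. The part of low levels in these correlations was not tested. In addition, 4 probe sets of 3 genes were on both arrays, with the same sign of the irradiation difference in 4 of 4. They read 0.14 and 0.19 on arrays A and B for Mrpl27, 0.16 and 0.31 for Mrpl43, and 0.08 and 0.22 and 0.16 and 0.26 for the 2 of Mrpl52. Around their group means, large subunit probe sets of array A correlated with each other at a median of 0.07 and small subunit ones at 0.10, and large with small at 0.07, against 0.01 over all pairs on that array.

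Other lists of genes gave the setting. For the averaged irradiation difference, 12.8% of all probe sets tested on array A were called. There, 43 of 129 probe sets of nuclear respiratory chain and ATP synthase subunits were called (33.3%), all higher, with a median of 0.12. Of 90 probe sets of cytosolic ribosomal proteins 5 were called higher and 1 lower (6.67% called), with a median of 0.07. A list of other genes of mitochondrial gene expression had 99 of 107 genes tested. They covered ribosome assembly, tRNA synthetases, tRNA modification, translation factors, mitochondrial DNA and transcription, and regulators. The list also held 6 ribosomal proteins with other symbols, 5 of them tested. On array A it had 3 probe sets called higher and 6 lower of 105 (8.57% called), with a median of -0.04. On array B it had 1 higher of 54 (1.85%, against 2.14% of all), with a median of 0.03. The large and small subunit medians on array A, 0.07 and 0.05, lay between those of that list and of the respiratory chain. The lists were not tested against each other.

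**Figure D5:**
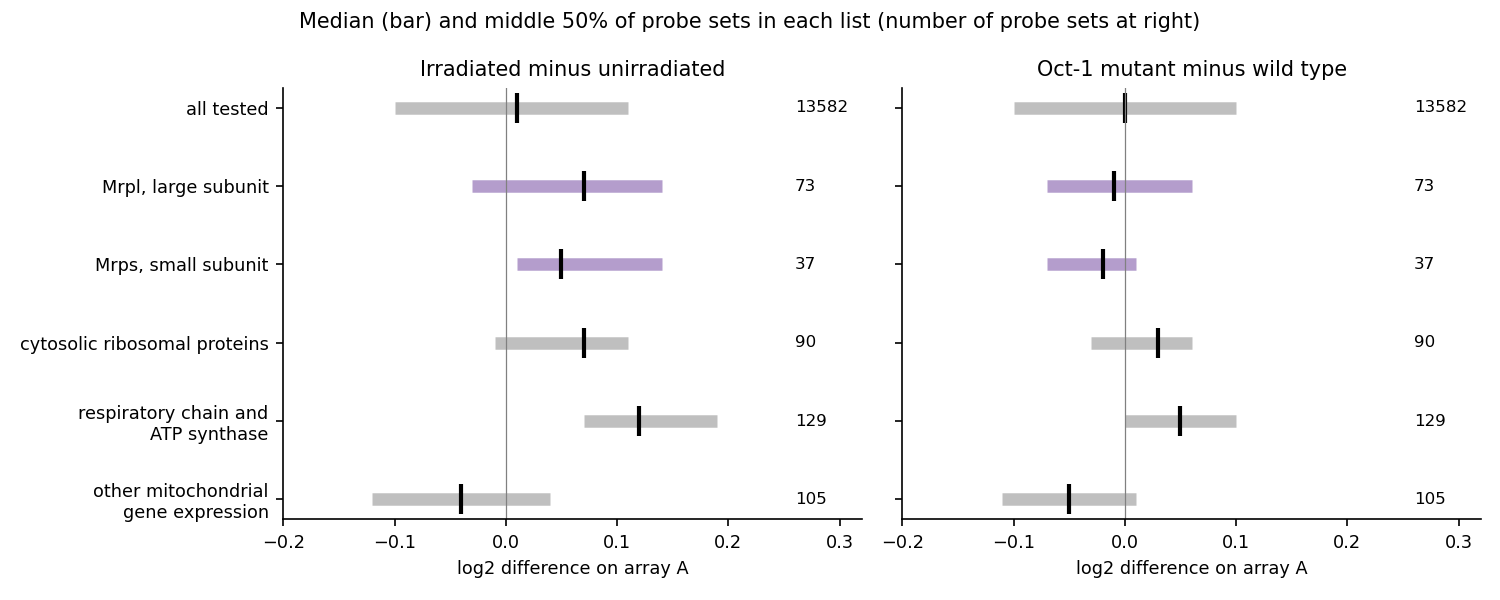
Median (black mark) and middle 50% (bar) of the log2 difference on array A for all tested probe sets, large and small subunit members (purple) and 3 other lists, with the number of probe sets at right; left, irradiated minus unirradiated, right, Oct-1 mutant minus wild type. For irradiation the medians run from -0.04 for other mitochondrial gene expression to 0.12 for the respiratory chain and ATP synthase, with the subunits at 0.07 and 0.05.

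Within the list of other mitochondrial gene expression, the nuclear receptor Esrra, a regulator of mitochondrial genes, was higher after irradiation by 0.42 (limma adjusted p = 0.0189). Mterf4, which takes part in ribosome assembly, was higher by 0.33 (0.0167), Mpv17l2 by 0.37 on array B (0.0178) and Hsd17b10, a subunit of mitochondrial RNase P, by 0.23 (0.0202). The lower ones with the smallest limma adjusted p were Mtres1 (-0.22, 0.0148), the coactivator Pprc1 (-0.26, 0.0172), the GTPase Noa1 (-0.26, 0.0177) and Hcfc1 (-0.20, 0.0264), followed by Pdf (-0.27, 0.0468) and Fastkd2 (-0.26, 0.049). For genotype, 8 of 159 probe sets of that list were called (5.03%, against 6.26% of all), 2 higher and 6 lower. On array A these were 6 of 105 (5.71%, against 10.6% of all), and on array B 2 of 54 (3.7%, against 1.9%). Gadd45gip1, a large subunit protein that does not carry an Mrp symbol, was 1.67-fold higher in the mutant (log2 0.74, SE 0.07, limma adjusted p = 1.9e-06). Rbfa, a ribosome-binding factor, was higher by 0.30 on array B (limma adjusted p = 0.0394). The ribosome assembly factors Fastkd2 (-0.48 and -0.43, limma adjusted p = 0.00114 and 0.0442), Grsf1 (-0.33, 0.0108) and Eral1 (-0.26, 0.0192) and the RNA-binding protein Lrpprc (-0.34, 0.00739) were lower, as was Lars2, the mitochondrial leucyl-tRNA synthetase, on array B (-0.43, 0.0394).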

How the data were processed

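The files hold the authors' deposited log2 values, 1 per probe set and array; how these were summarised and scaled is not stated, and the log base was read from their range. Genes came from the platform annotation, with symbols updated through RefSeq (0 member symbols changed). Controls were dropped, and a probe set was tested if its mean reached the 40th percentile of its array. limma 3.58.1 (R 4.3.3) fitted the 4 groups for each array type with an intensity trend, and Benjamini-Hochberg adjustment ran over all probe sets tested on an array type. For Oct-1 mutant unirradiated replicate 1, array A carries no replicate number in its label; that of array B was used, since both share a title number. Replicate numbers paired the samples by the criterion used: same-numbered extracts deviated together (r from 0.32 to 0.72, array A; from 0.24 to 0.61, array B), though differently numbered extracts of a number run did so about as much (medians 0.55 and 0.40, against 0.58 and 0.45). Text names all member probe sets called without a block, the 3 largest differences each way, Mrps18 paralogues, chromosome 1 members and called pathway genes. Members and lists were chosen with earlier results of these data known. Alternatives were 2 blocks, single runs, filters, no trend, quantile normalization, 1 probe set per gene, Mrps18a and Mrps30 in the large subunit, and leaving out each extract. Python 3.11.15, numpy 2.4.6, pandas 2.3.3 and matplotlib 3.10.9 made summaries and plots. Scripts were tested on simulated data.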

Additional observations from a re-analysis of the deposited data

Results flagged for a closer look

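Within groups of 4 extracts, 6 of 92 groups examined had 1 extract far from the others by Dixon's criterion; chance alone gives about 1 in 20. Mrpl39 stood at 9.43 in wild type irradiated replicate 3, against 9.32 to 9.33 in the others, and at 9.60 in Oct-1 mutant irradiated replicate 2, against 9.25 to 9.29. Mrpl50 stood at 5.80 in Oct-1 mutant unirradiated replicate 4, against 6.68 to 6.75. Mrpl52 on 1415762_x_at of array B stood at 11.02 in Oct-1 mutant unirradiated replicate 1, against 11.35 to 11.42. Mrps6 stood at 10.37 in Oct-1 mutant unirradiated replicate 2, against 10.03 to 10.08. The median deviation of the small subunit was 0.06 in Oct-1 mutant irradiated replicate 2, against -0.01 to 0.00.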

How the results depend on the processing

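Counts of called members depended on the fit. With the replicate block they rose from 0 to 7 for irradiation in wild type, 0 to 7 in the mutant, 2 to 8 for genotype without irradiation, 1 to 7 with it, 14 to 30 for averaged irradiation and 7 to 19 for averaged genotype, and with a number run block to 7, 10, 7, 8, 28 and 18. Within the first number run alone, 1 was called for irradiation in wild type, 1 in the mutant, 1 for genotype without irradiation, 8 for averaged irradiation and 3 for averaged genotype; within the second, 2 for genotype with irradiation and 3 for averaged irradiation, from fewer extracts. With 1 probe set per gene, 8 were called for averaged irradiation, from fewer probe sets. A filter at the 60th percentile gave 1 call in wild type, as did no intensity trend, and quantile normalization gave 1 for genotype without irradiation. The difference of irradiation effects gave 0 calls in every fit.

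Leaving out 1 extract gave 0 to 2 calls in wild type, 0 to 3 in the mutant, 1 to 3 for genotype without irradiation, 9 to 17 for averaged irradiation and 4 to 8 for averaged genotype. The 9 came without wild type unirradiated replicate 1. The 4 came without replicate 3 or 4 of either mutant group, or replicate 2 of either wild type group.

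The difference of medians, large minus small subunit, moved from 0.07 in wild type to 0.01 (second run) and 0.03 (no filter), from -0.01 to -0.06 for the difference of effects (first run), from 0.03 to 0.07 for genotype without irradiation (1 probe set per gene), from 0.00 to -0.01 (first run) and 0.04 (1 probe set per gene) for genotype with irradiation, from 0.04 for averaged irradiation to 0.00 (second run), 0.01 (no filter) and 0.07 (1 probe set per gene), and from 0.00 to 0.05 for averaged genotype (1 probe set per gene). Leaving out 1 extract gave 0.03 to 0.09 in wild type, 0.01 to 0.06 for averaged irradiation, -0.06 to 0.00 for the difference of effects, 0.01 to 0.06 for genotype without irradiation and -0.03 to 0.04 with it. Mrps18a differed by -0.07 after irradiation in the first run and by -0.01 to 0.05 on leaving out 1 extract, and Mrps18c by 0.00 to 0.06 for both averaged differences. The causes were not tested. None of the 46 results called for single probe sets, members and pathway genes together, changed direction under an alternative. Of them, 11 missed the threshold without a filter, 7 after quantile normalization, 1 without the trend, 28 in the first and 30 in the second number run, and 0 with either block.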
